A study of Mus musculus with 14 samples.

Results

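The enzymes that turn squalene into cholesterol were followed in mouse forelimb buds with and without mesenchymal *Smad4*. The 9 genes were taken by name from the count files, in pathway order: *Sqle*, *Lss*, *Cyp51*, *Tm7sf2*, *Sc4mol* (also called *Msmo1*), *Nsdhl*, *Hsd17b7*, *Sc5d* and *Dhcr7*. All 9 had a row in every file, out of 23284 gene symbols in all, and all 9 were among the 12806 genes with enough reads to be tested. RNA-seq libraries from polyA RNA had been made from 14 NMRI embryos, and both forelimb buds of 1 embryo gave 1 library. The wild-type embryos had the genotype Smad4+/+ PrxCreT/+ and numbered 3 at E10.0 (E, embryonic day), with 30 somites, and 3 at E10.5, with 35 somites. The mutants had the genotype Smad4Δ/Δc PrxCreT/+, that is 1 constitutive null and 1 conditionally inactivated *Smad4* allele, and numbered 4 at each stage. Controls and mutants alike carried the *Prrx1*-CRE transgene, which acts in limb bud mesenchyme, so that the ectoderm of a mutant bud keeps an intact conditional allele.

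Cholesterol is built from acetyl-CoA through mevalonate and squalene. Squalene is then oxidized and closed into the ring system of lanosterol, and lanosterol loses methyl groups and has its double bonds moved and reduced until cholesterol is left. The genes of the pathway are known to share a transcriptional control by the SREBP factors, which are held in the endoplasmic reticulum when sterols are plentiful. In the embryo cholesterol is a membrane component, is attached covalently to Hedgehog ligands and takes part in the activation of their signal transducer Smoothened. Inherited loss of some of the late enzymes, among them DHCR7 and NSDHL, is known to cause malformation syndromes with limb defects.

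To show what the promoters of these genes have in common, the 250 bases upstream of the RefSeq transcription starts (build GRCm38.p6) were searched on both strands for short motifs, chosen after the sequences had been seen. Of the 9 genes, 8 had a window, with *Sc4mol* listed under *Msmo1*, and *Sqle* had none. TCACNNCA, a form of the sterol regulatory element, was found in 5 of the 8 genes (*Cyp51*, *Sc4mol*, *Hsd17b7*, *Sc5d*, *Dhcr7*), against 3509 of the 27025 genes with a window and 11.3% of the 9156 tested genes whose symbol had a window. CCAAT, which NF-Y binds, was found in 8 of 8 (37.5% of all genes and 41.0% of tested genes), and CACGTG, the palindromic E-box, in 3 of 8 (6.86% and 10.2%). GGGCGG, the GC box, was also present in 8 of 8 but in 65.8% of tested genes, and GGCGCC, a core that SMAD proteins can bind, in 3 of 8 (20.4% of tested genes). These are matches of letters and not measured binding, and a window without a match says nothing about a factor. The stretches around TCACNNCA in the genes with a single window are shown 5′ to 3′ on the strand of the gene, with that motif in capitals, because they let its core and spacing be compared between genes that act at different steps.
Cyp51, chr5:4104750-4104809, minus strand: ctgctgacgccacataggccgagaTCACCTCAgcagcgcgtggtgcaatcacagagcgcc
Sc4mol, chr8:64733635-64733694, minus strand: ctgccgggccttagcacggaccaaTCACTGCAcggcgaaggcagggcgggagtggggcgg
Hsd17b7, chr1:169969287-169969346, minus strand: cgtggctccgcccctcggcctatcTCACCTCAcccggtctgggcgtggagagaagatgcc
Sc5d, chr9:42264317-42264376, minus strand: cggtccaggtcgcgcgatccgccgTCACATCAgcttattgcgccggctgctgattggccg
*Cyp51* and *Hsd17b7* had the same core, TCACCTCA. *Dhcr7*, whose stretches are not shown, had 3 windows and so more places for a match than the genes with a single window. Its window 3 held TCACATCA, the core of *Sc5d*. Counted from the transcription start, the motif began at −88 in *Cyp51*, −92 in *Sc4mol*, −117 in *Hsd17b7* and −52 in *Sc5d*; *Sc4mol* held another at −177. In *Sc4mol* a CCAAT ran directly into it, ending on its first base.

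The libraries held 34066930 to 61691258 reads on genes. *Smad4* fell from 155 ± 8.01 to 38.3 ± 4.02 CPM (reads scaled to library size; mean ± SD, n = 3 and n = 4) at E10.0 and from 159.5 ± 2.15 to 35.6 ± 3.24 CPM at E10.5, with no overlap between genotypes. The 4 mutant libraries numbered 4 and 5 stood apart: the ribosomal RNA gene *Rn45s* took 1.72 to 8.05% of their reads, against 0.151 to 0.478% in the other 10, and they held 34066930 to 43317508 reads, against 42531348 to 61691258. The counts of called enzymes are therefore also given with these 4 libraries left out. Markers of limb mesenchyme (*Prrx1*, *Twist1*, *Tbx5*, *Lhx9*, *Pdgfra*) were abundant in all groups, and ectoderm, endothelial and erythroid markers were detected too, except *Hba-a1*, which was at 0. In these whole buds, fewer cells of a type and less RNA per cell cannot be told apart.

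At E10.0 the transcripts of all 9 enzymes were lower in the mutants than in the wild type. The reductions ran from 24.6% for *Hsd17b7* to 44.1% for *Nsdhl*, and each of the 9 passed the test, an edgeR exact test over 12806 genes that called a gene at a false discovery rate (FDR) up to 0.1 and a 1.2-fold change or more. Of all genes tested, 3.28% were called lower in this comparison. In each of the 9 enzymes every one of the 4 mutant embryos lay under every one of the 3 wild-type embryos, which held for 9.76% of all genes. The median log2 fold change of the enzymes was −0.69, beside −0.02 over all genes tested.

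**Figure D1:**
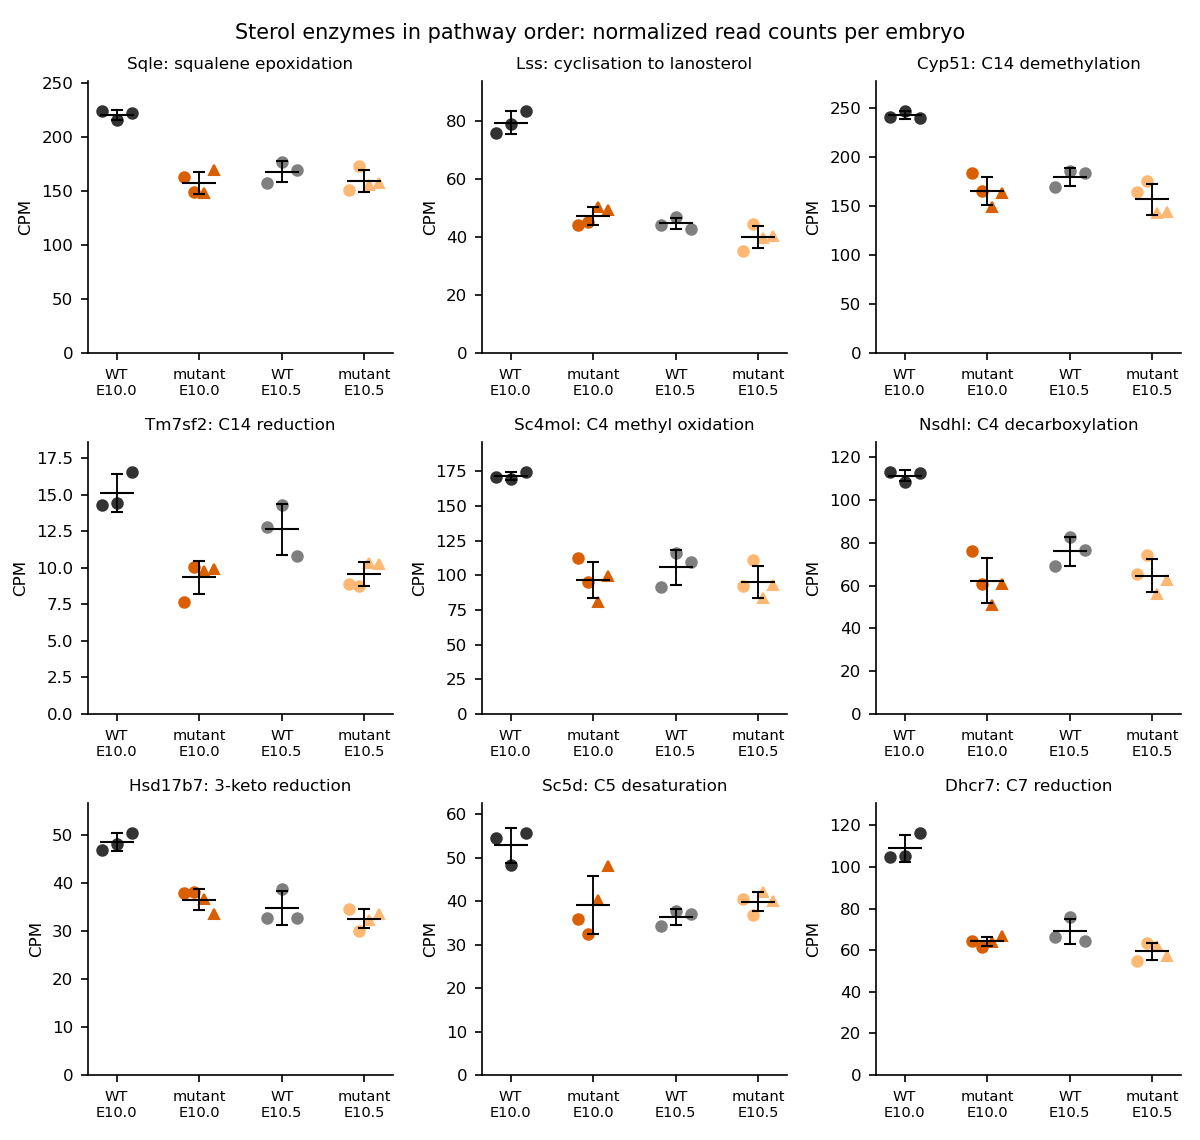
Normalized read counts (CPM, linear axes from 0) of the 9 enzymes in pathway order, 1 point per embryo, by genotype (WT, wild type; mutant, *Smad4* Δ/Δc) and stage; triangles are the mutant libraries numbered 4 and 5, and horizontal marks with bars are the mean ± SD (n = 3 wild type, n = 4 mutants). In every panel the 3 wild-type embryos at E10.0 lie highest, and the 3 other groups lie close together, except for *Tm7sf2* and *Sc5d*. In *Tm7sf2* 1 wild-type embryo at E10.5 reached 14.3 CPM, and in *Sc5d* mutant replicate 5 at E10.0 reached 48.0 CPM.

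*Sqle* (chr15:59146632-59162747 in mm9, plus strand) encodes squalene epoxidase, which commits squalene to sterols. It had 225, 216 and 222 CPM in the 3 wild-type embryos at E10.0 and 163, 149.6, 148 and 169 CPM in the 4 mutants. The mutants were tightly grouped, 28.7% under the wild type (log2 fold change −0.49 ± 0.05 SE, edgeR FDR = 1.56e-06). *Lss* (chr10:75994333-76019883, plus strand), the synthase that folds the epoxide into lanosterol, had 75.8, 79.0 and 83.6 CPM in wild type and 44.2, 45.1, 50.3 and 49.5 CPM in the mutants. The mutants were 40.6% lower (log2 −0.75 ± 0.06, edgeR FDR = 4.15e-13). Of the exon bases annotated for *Lss*, 381 of 10787 are shared with the opposite-strand gene *4930483K19Rik*, whose reads cannot be told apart in unstranded libraries.

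*Cyp51* (chr5:4081145-4104746, minus strand), the demethylase that acts first on lanosterol, had 241, 247 and 239.7 CPM in wild type and 184, 165, 149 and 163 CPM in the mutants, 31.9% lower (log2 −0.55 ± 0.06, edgeR FDR = 8.25e-07). The next step, reduction of the double bond that the demethylase leaves, is carried out by *Tm7sf2* (chr19:6062821-6068373, minus strand) and also by *Lbr*. *Tm7sf2* was the least abundant enzyme, with 14.3, 14.4 and 16.6 CPM in wild type and 7.68, 10.03, 9.77 and 9.89 CPM in the mutants. It was 38.2% lower (log2 −0.69 ± 0.12, edgeR FDR = 3.70e-05), and 1 mutant embryo, replicate 1, lay well under the other 3. In *Tm7sf2*, 532 of 3484 annotated exon bases are shared with *1110014N23Rik* on the same strand. *Lbr*, the lamin B receptor with the same reductase activity, had 145.9 to 162.5 CPM in wild type and 114 to 149 CPM in the mutants, which overlapped, and it did not pass the test (log2 −0.21 ± 0.10, edgeR FDR = 0.294).

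Removal of the paired methyl groups next to the sterol hydroxyl takes 3 enzymes that act in a cycle. *Sc4mol* (chr8:67196936-67212589, minus strand), the methyl sterol oxidase, had 171, 169 and 175 CPM in wild type and 112, 95.1, 80.8 and 99.3 CPM in the mutants, 43.6% lower (log2 −0.83 ± 0.10, edgeR FDR = 1.03e-10). *Nsdhl* (chrX:70163896-70203853, plus strand), the decarboxylating dehydrogenase, had 113, 108.5 and 112 CPM in wild type and 76.4, 60.9, 50.9 and 60.8 CPM in the mutants. Its reduction of 44.1% was the largest of the 9 over all 4 mutants (log2 −0.84 ± 0.12, edgeR FDR = 4.28e-10), but not in replicates 1 and 3 alone, whose log2 ratio to the wild-type mean was −0.70 for *Nsdhl* and −0.83 for *Lss*. *Hsd17b7* (chr1:171879666-171899372, minus strand), the ketoreductase that closes the cycle, showed the smallest change, from 46.8, 48.0 and 50.4 CPM to 37.8, 38.1, 36.6 and 33.4 CPM (log2 −0.41 ± 0.05, edgeR FDR = 0.00137). Over all 4 mutants, the 3 enzymes of the cycle thus included both ends of the range.

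*Nsdhl* is the X-linked enzyme of the 9. The embryos were described as gender-matched, and *Xist* had 38536 to 90026 reads in every library. Among the 468 X-linked genes tested, 10 were called lower and 13 higher in the mutants at E10.0, and their median log2 fold change was 0.0004. *Xist* itself was higher in the mutants (log2 0.43 ± 0.21, edgeR FDR = 0.0682) with overlapping embryos. The X-linked genes with a lower log2 fold change than *Nsdhl* numbered 2. The part of sex or X inactivation in the *Nsdhl* difference was not tested.

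The last enzymes act on the ring double bonds. *Sc5d* (chr9:42062260-42072383, minus strand), the sterol desaturase, had 54.6, 48.3 and 55.8 CPM in wild type and 35.9, 32.5, 40.4 and 48.0 CPM in the mutants. The groups came closest here, with 48.3 CPM in the lowest wild-type and 48.0 CPM in the highest mutant embryo, and the mean was 26.0% lower (log2 −0.435 ± 0.137, edgeR FDR = 0.00691). Without wild-type replicate 3 the *Sc5d* call was lost (log2 −0.395, edgeR FDR = 0.11). *Dhcr7* (chr7:151009050-151034315, plus strand), the reductase that yields cholesterol from its immediate precursor, had 105, 105 and 116.5 CPM in wild type and 64.5, 61.5, 63.9 and 66.9 CPM in the mutants. The mutants were 41.0% lower (SD 2.20 CPM), and *Dhcr7* had the smallest FDR of the 9 (log2 −0.76 ± 0.06, edgeR FDR = 6.96e-15).

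*Ebp*, the sterol isomerase, which acts on these sterols besides the 9, had 15.4 to 17.1 CPM in wild type and 12.5 to 14.5 CPM in the mutants and missed the threshold (log2 −0.26 ± 0.07, edgeR FDR = 0.175), although the groups did not overlap. *Lbr* and *Ebp* were thus not called at E10.0. Proteins that pass electrons to or hold together these enzymes moved less: of *Por*, *Cyb5r3*, *Cyb5b* and *0610007P14Rik* (also called *Erg28*, the scaffold of the demethylating enzymes), *0610007P14Rik* was called lower (log2 −0.30 ± 0.06, edgeR FDR = 0.0336) and the median of the 4 was −0.16.

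**Figure D2:**
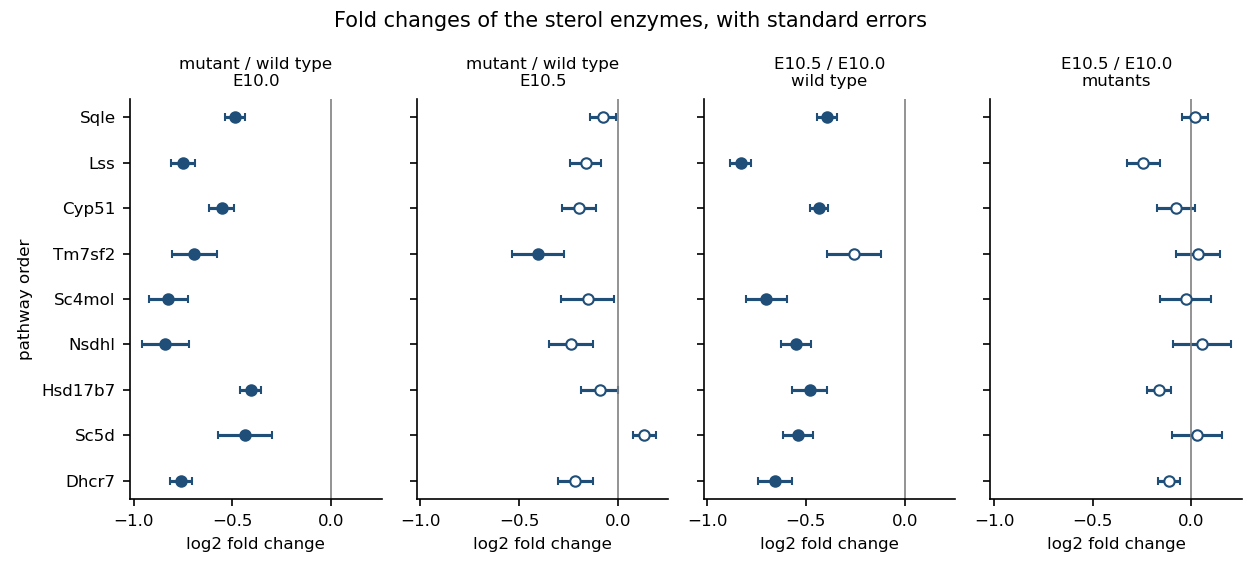
Log2 fold changes of the 9 enzymes in pathway order (top to bottom) with standard errors, for mutant over wild type at E10.0 and E10.5 and for E10.5 over E10.0 in wild type and in mutants; filled points passed FDR 0.1 and a fold change of 1.2. Filled points number 9, 1, 8 and 0 from left to right, and the panels for genotype at E10.0 and for stage in wild type share the wild-type embryos at E10.0.

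At E10.5 the genotypes lay close together. *Tm7sf2* was the single enzyme called, lower by 24.5% in the mutants, while 1.56% of all genes were called lower. An unadjusted p under 0.05 in the edgeR exact test was reached by 4 of the 9. The share of all genes that reached it at this stage was not determined. The median log2 fold change of the 9 was −0.16, beside −0.01 over all genes. *Tm7sf2* had 12.8, 14.3 and 10.8 CPM in wild type and 8.93, 8.78, 10.3 and 10.2 CPM in the mutants, without overlap (log2 −0.41 ± 0.13, edgeR FDR = 0.0827). The call was close to the threshold and was lost with the quasi-likelihood test (FDR = 0.118), and with replicate blocks (log2 −0.48, FDR = 0.111). It was also lost without wild-type replicate 1 or 2 of either stage and without mutant replicate 1, 2 or 5 at E10.5, the highest FDR being 0.675 without wild-type replicate 2 at E10.5.

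*Dhcr7* was lower in each mutant at E10.5 than in each wild-type embryo, with 66.5, 76.0 and 64.5 CPM against 54.6, 63.4, 62.2 and 57.3 CPM, but did not pass (log2 −0.22 ± 0.09, edgeR FDR = 0.250). The share of all genes that separated the genotypes without overlap at E10.5, as *Tm7sf2* and *Dhcr7* did, was not determined. *Lss* had 44.3, 46.8 and 42.9 CPM against 35.3, 44.5, 39.6 and 40.2 CPM, which overlapped (log2 −0.16 ± 0.08, edgeR FDR = 0.596). *Nsdhl* had 69.0, 82.5 and 76.5 CPM against 65.4, 74.3, 55.9 and 62.4 CPM (log2 −0.24 ± 0.11, edgeR FDR = 0.459). In both, the mutant embryos spread downward from the wild-type range. *Sc5d* went the other way, with 34.4, 37.7 and 37.1 CPM in wild type and 40.6, 36.9, 42.2 and 40.0 CPM in the mutants (log2 0.13 ± 0.06, edgeR FDR = 0.841). The remaining 4 enzymes overlapped between genotypes, with log2 fold changes of −0.08 ± 0.07 for *Sqle*, −0.20 ± 0.08 for *Cyp51*, −0.15 ± 0.13 for *Sc4mol* and −0.09 ± 0.09 for *Hsd17b7*. With these errors, a small reduction in the mutants at E10.5 could be neither shown nor excluded for the enzymes that were not called.

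In wild-type buds the enzymes fell from the earlier to the later stage. Lower values at E10.5 were called for 8 of the 9, with *Tm7sf2* as the exception, against 4.81% of all genes, and the same 8 did not overlap between stages, which held for 20.4% of all genes. *Lss* fell most, from 79.5 ± 3.92 to 44.7 ± 1.95 CPM (n = 3 each, log2 −0.83 ± 0.05, edgeR FDR = 8.63e-14). *Sc4mol* fell from 172 ± 2.73 to 105.6 ± 12.6 CPM (log2 −0.70 ± 0.10, edgeR FDR = 8.78e-07) and *Dhcr7* from 109 ± 6.61 to 69.0 ± 6.17 CPM (log2 −0.66 ± 0.09, edgeR FDR = 1.53e-09). The other 5 called enzymes changed by log2 −0.55 (*Nsdhl*), −0.54 (*Sc5d*), −0.48 (*Hsd17b7*), −0.435 (*Cyp51*) and −0.39 (*Sqle*). *Tm7sf2* had 14.3 to 16.6 CPM at E10.0 and 10.8 to 14.3 CPM at E10.5, and did not pass (log2 −0.26 ± 0.14, edgeR FDR = 0.287). This comparison shares its wild-type embryos at E10.0 with the genotype comparison at that stage, so the fold changes of both rest on the same 3 high values and are set side by side without a statistic.

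In mutant buds none of the 9 enzymes was called between the stages by the edgeR exact test, the quasi-likelihood test or DESeq2, while 8.44% of all genes were called lower, and 1 of the 9 had an unadjusted p under 0.05. That gene was *Lss*, with 47.3 ± 3.03 CPM at E10.0 and 39.9 ± 3.78 CPM at E10.5 (n = 4 each, log2 −0.24 ± 0.08, edgeR FDR = 0.0318), which passed the FDR but not the fold change of 1.2. With blocks for the replicate number (quasi-likelihood test), the *Lss* change reached the fold change and was called (log2 −0.27, FDR = 0.0129; in mutants alone −0.32, FDR = 0.00977), which made 1 of 9. The other 8 ran from log2 −0.17 to 0.05. The share of all genes with an unadjusted p under 0.05 between the mutant stages was not determined.

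Set against the wild-type mean at E10.0, the mutants at E10.0 stood at 55.9% (*Nsdhl*) to 75.4% (*Hsd17b7*), the wild type at E10.5 at 56.2% (*Lss*) to 83.6% (*Tm7sf2*) and the mutants at E10.5 at 50.2% (*Lss*) to 75.5% (*Sc5d*). The wild type at E10.0 was thus the high group for each enzyme. Averaged over the 9 enzymes on a log2 scale centred on each gene, its 3 embryos stood at 0.48, 0.46 and 0.55, those of the wild type at E10.5 at −0.12, 0.07 and −0.08, and the 8 mutants between −0.23 and −0.09. In some wild-type embryos the enzymes deviated together from their group mean. In replicate 2 at E10.5 all 9 were above it, and in replicate 1 of that group 8 of 9 were below it. The mutant embryos had 3 to 6 of the 9 below their group mean. The share of all genes on the same side of the group mean in these libraries was not determined.

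**Figure D3:**
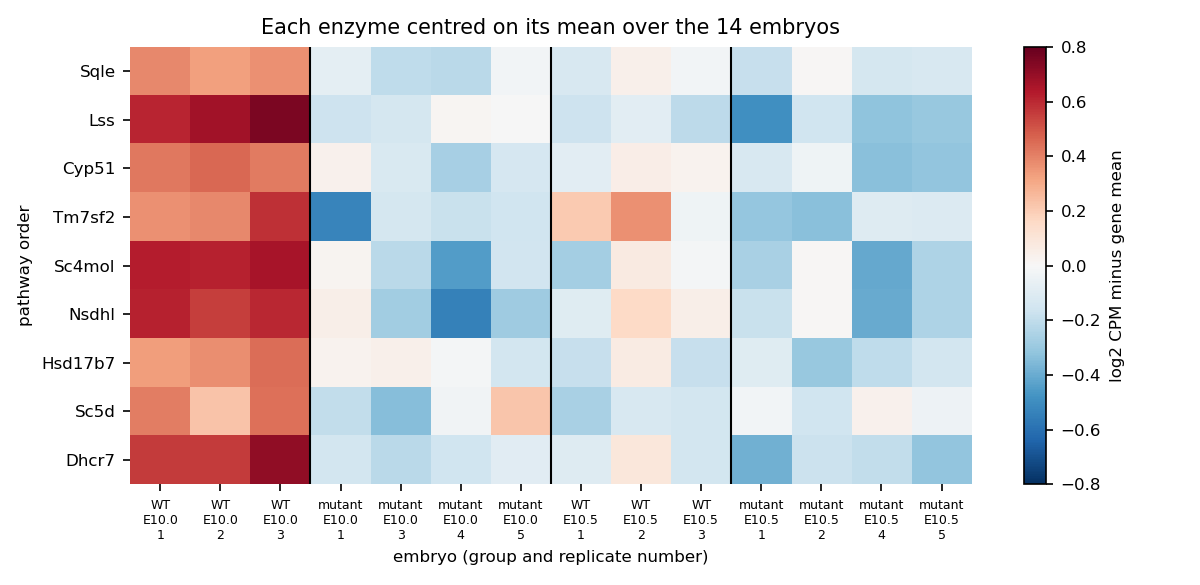
Log2 CPM of each enzyme (rows, pathway order) in each of the 14 embryos (columns, by group and replicate number), minus the gene's mean over the 14 embryos. The 3 wild-type embryos at E10.0 are above the mean in all 9 rows, and the remaining 11 columns lie near or under 0, apart from *Tm7sf2* in wild-type replicates 1 and 2 at E10.5 and *Sc5d* in mutant replicate 5 at E10.0.

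An interaction term of genotype and stage, fitted over all 14 embryos with the edgeR quasi-likelihood test, asked whether the genotype difference itself changed with time. *Lss* (log2 0.59 ± 0.10, FDR = 0.0766) and *Dhcr7* (log2 0.545 ± 0.105, FDR = 0.0766) passed an FDR of 0.1, among 0.172% of all genes. The positive sign means that the mutant deficit was larger at E10.0 than at E10.5. An unadjusted p under 0.05 was reached by 8 of the 9, all with the same sign, against 5.66% of all genes. The exception, *Tm7sf2*, had log2 0.29 ± 0.175 (FDR = 0.950). The largest interaction, that of *Sc4mol* (log2 0.67 ± 0.17, FDR = 0.228), did not pass, and neither did that of *Nsdhl* (log2 0.60 ± 0.17, FDR = 0.387). With DESeq2 *Sc4mol* (FDR = 0.0231) and *Sqle* (FDR = 0.0196) passed as well, but that test called 84 of all genes, against 22 here. The calls of *Lss* and *Dhcr7* lay near the limit and were lost in most fits that left out 1 embryo. Their log2 values in those fits stayed at 0.529 to 0.642 for *Lss* and 0.493 to 0.621 for *Dhcr7*. Of the 14 fits that left out 1 embryo, *Lss* remained called in 2 and *Dhcr7* in 3. None of the 9 passed in 10 of these fits, those without any 1 of the 3 wild-type embryos at E10.0, mutant replicate 3 or 4 at E10.0, wild-type replicate 1 or 3 at E10.5, or mutant replicate 2, 4 or 5 at E10.5. Without the 4 mutant libraries numbered 4 and 5 none passed either (*Lss* log2 0.66, FDR = 0.272; *Dhcr7* log2 0.56, FDR = 0.407). Without mutant replicate 1 at E10.0, *Sc4mol* and *Nsdhl* passed (FDR = 0.0992 each) and *Lss* (FDR = 0.106) and *Dhcr7* (FDR = 0.105) did not. With replicate blocks the *Dhcr7* call was lost (FDR = 0.12).

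Without those 4 libraries the counts of called enzymes were 9 at E10.0, 1 at E10.5, 8 between the wild-type stages and 0 between the mutant stages. In the same fits 2045, 521, 1890 and 2240 of all genes were called in either direction, against 840, 477, 1310 and 2469 with all libraries. Within the mutants at E10.0 the libraries numbered 4 and 5 were both lower than the other pair in *Cyp51*, *Nsdhl* and *Hsd17b7* and both higher in *Lss* and *Sc5d*. For *Nsdhl* the log2 ratio to the wild-type mean was −0.70 in replicates 1 and 3 and −0.996 in replicates 4 and 5, and for *Sc5d* it was −0.63 and −0.26. At E10.5 *Cyp51* and *Nsdhl* were again lower in both of these libraries, and *Tm7sf2* was higher in both (log2 ratio to the wild-type mean −0.30, against −0.51 in replicates 1 and 2). In these genes the size of the reduction thus differed between the library pairs, while at E10.0 its direction did not. How often all genes separate in this way was not determined, so the separation is not read as a trait of the enzymes.

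Levels of different enzymes can be compared per transcript length. With the longest coding transcript of the mm9 annotation, the order in wild-type buds at E10.0 was *Sc4mol* (84.0 ± 1.34 CPM per kilobase), *Sqle* (80.1 ± 1.68), *Cyp51* (61.7 ± 1.01), *Nsdhl* (51.4 ± 1.16), *Dhcr7* (38.7 ± 2.35), *Sc5d* (23.5 ± 1.80), *Lss* (17.0 ± 0.841), *Hsd17b7* (10.5 ± 0.403) and *Tm7sf2* (10.1 ± 0.861). Neighbors in this order did not overlap between embryos, except *Hsd17b7* and *Tm7sf2*. In the mutants at E10.0 *Sqle* came first (57.1 ± 3.75 CPM per kilobase) and overlapped with *Sc4mol* (47.4 ± 6.35). With all annotated exon bases as length instead, *Cyp51* came first (56.6 ± 0.923) and *Sc4mol* fell to the fifth place (27.9 ± 0.445), so the order at the top depends on which exons are taken as transcribed. In both orders *Lss*, *Hsd17b7* and *Tm7sf2* were the lowest 3.

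The upstream part of the pathway behaved alike. Of the 9 mevalonate genes that lead to squalene, 8 were tested and all 8 were called lower in the mutants at E10.0 (median log2 −0.60), from *Mvd* (−0.85 ± 0.20, edgeR FDR = 4.85e-05) to *Pmvk* (−0.43 ± 0.13, edgeR FDR = 0.0419). *Hmgcs1* was listed with 0 to 6 reads in every library and was not tested. At E10.5 *Acat2* was called lower by the edgeR exact test (log2 −0.32 ± 0.11, FDR = 0.0939), while the quasi-likelihood test and DESeq2 called 0 of the 8, and the median was −0.17. Between the wild-type stages 6 of the 8 were called lower, and between the mutant stages 0 by the edgeR exact test, the quasi-likelihood test or DESeq2, with an unadjusted p under 0.05 for 0 of 8 in the first.

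Of 10 genes for sterol sensing and LDL uptake, 6 were called lower at E10.0. At the later stage 0 were called by the edgeR exact test, the quasi-likelihood test or DESeq2, and 1 had an unadjusted p under 0.05 in the first. *Mbtps2*, a protease that releases SREBP, had the highest log2 fold change of the list at E10.0 (0.09 ± 0.13, edgeR FDR = 0.817). Fatty acid genes were mixed, with 4 of 9 called lower at E10.0. Over all 9 the log2 fold changes ran from *Scd1* (log2 −0.70 ± 0.07, edgeR FDR = 4.57e-13) to *Acaca* (0.22 ± 0.15, edgeR FDR = 0.333), which was not called. Among 8 genes of cholesterol efflux and the LXR receptors, 1 was called lower, *Nr1h3* (log2 −0.86 ± 0.21, edgeR FDR = 0.0425), which encodes LXRα. *Nr1h3* was close to the limit of the filter, with means of 1.22 CPM in wild type (50 to 74 reads) and 0.684 CPM in mutants (27 to 37 reads). The highest value in that list was that of *Abca1*, a cholesterol exporter (0.33 ± 0.12, edgeR FDR = 0.232). The lists' medians at E10.0 were −0.47, −0.20 and −0.07.

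**Figure D4:**
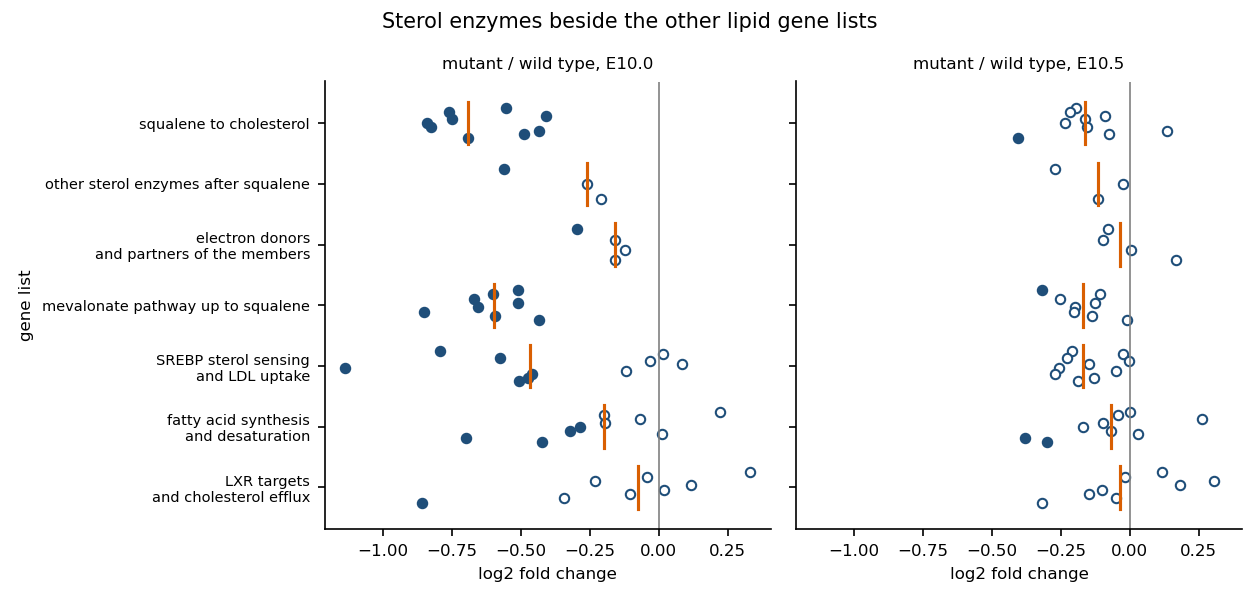
Log2 fold change of mutant over wild type at E10.0 (left) and E10.5 (right) for the 9 enzymes from squalene to cholesterol and for 6 further lists of lipid genes; 1 point per tested gene, filled where it passed FDR 0.1 and a fold change of 1.2, with the list median as an orange bar. At E10.0 the medians go from −0.69 in the top row to −0.07 in the bottom row, and at E10.5 those 2 rows stand at −0.16 and −0.035.

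The genes most like the enzymes over the 14 embryos were looked for among all genes tested, by the root mean square difference between a gene's centred log2 CPM and the mean of the 9. Among the nearest 10 outside the list were *Fdft1* (0.0733), *Fdps* (0.0852), *Abcc10* (0.0971), *Slc35b2* (0.117), *Scd2* (0.124), *Lipg* (0.132), *Insig1* (0.133), *Idi1* (0.134) and *Scd1* (0.145), in log2 units, where the median over all genes was 0.311. *Fdft1*, squalene synthase, which makes the substrate of *Sqle*, was nearer to the mean than any of the 9 enzymes, the nearest of which was *Dhcr7* (0.0797). *Tm7sf2* (0.184, rank 130) and *Sc5d* (0.177, rank 90) were the farthest of the 9. Of the 10, 7 were on the lipid lists, and *Abcc10*, *Slc35b2* and *Lipg*, an endothelial lipase gene, were not. At E10.0 *Lipg* was lower in the mutants by log2 0.71 ± 0.09, *Abcc10* by 0.61 ± 0.11 and *Slc35b2* by 0.57 ± 0.08. These genes were picked for a profile that is high in the wild type at E10.0. The differences therefore follow from the choice and are no separate result, and no test is given for them.

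Cell type markers are given beside the enzymes as summed CPM per list, here scaled to the reads on genes without TMM factors. At E10.0 mesenchyme markers summed to 1370 to 1640 in wild type and 1230 to 1480 in mutants, and ectoderm markers to 222 to 271 and 176 to 244. Endothelial markers summed to 248 to 291 and 275 to 309, erythroid markers to 2660 to 3580 and 2510 to 4680, muscle precursor markers to 30.6 to 33.9 and 28.6 to 37.6, and neural crest and Schwann precursor markers to 11.0 to 12.7 and 10.6 to 10.7. A further pair of lists was higher in each mutant: macrophage markers, with 2.41 to 6.10 in wild type and 7.14 to 9.33 in mutants, and mesothelium markers, with 1.06 to 2.51 and 7.46 to 17.4. The neural crest sums were lower in each mutant by a small margin. Of the 2 tested genes of that list, 0 were called and 0 had an unadjusted p under 0.05 in the edgeR exact test. *Foxd3* was at 0 in the wild type. Of the 5 mesenchyme markers 3 were called lower at E10.0, with a list median of log2 −0.29, against −0.69 for the enzymes. Between the wild-type stages all 4 tested macrophage markers were called higher (summed CPM 2.41 to 6.10 at E10.0 and 13.2 to 15.4 at E10.5). At E10.5 both tested mesothelium markers were called lower in the mutants (summed CPM 2.84 to 5.37 in wild type and 0.528 to 2.36 in mutants). Between the mutant stages the 4 macrophage markers were called higher and the 2 mesothelium markers lower at E10.5. The part of cell composition in the enzyme differences was not tested.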

How the data were processed

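The authors deposited 1 count table per embryo, with whole-number read counts per gene symbol: single reads of 50 bases were mapped to mm9 with TopHat2 2.0.13 (per the labels) and unique reads were counted without strand with HTSeq over RefSeq exons, and the deposited counts were not normalized. Reads outside exons (6.18 to 9.86%) and ambiguous reads (1.49 to 1.75%) stayed out of library sizes. At the depth given above the least abundant enzyme still had 327 reads in its lowest library.

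Genes reaching 1 CPM in 3 samples or more were kept, X, Y and M chromosomes included, and scaled by TMM (factors 0.937 to 1.03). CPM are relative to the reads on tested genes after that scaling, except the summed marker CPM, which are relative to all reads on genes without it. Comparisons used the exact test of edgeR 4.0.16 (R 4.3.3; tag-wise dispersion, 10 prior degrees of freedom, all 14 samples in the dispersion estimate) with Benjamini-Hochberg adjustment, called at an FDR up to 0.1 and a 1.2-fold change or more, and the interaction used its quasi-likelihood test with the same FDR and no fold limit. Standard errors come from the replicate variances of log2 CPM with a prior count of 2. The steps were tested on simulated data first. Alternatives were the quasi-likelihood test, DESeq2 1.42.0, RLE factors, no filter, sex and mitochondrial chromosomes left out, the compared groups alone, replicate blocks, each sample left out, samples numbered 1 to 3 alone, *Rn45s* left out and an FDR of 0.05. No pair of libraries of the same group agreed within sampling noise (chi-square per degree of freedom at least 12.9).

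The members and lists were chosen with earlier results of these data known. Named genes were the 9 enzymes, *Smad4*, the other sterol enzymes after squalene, the genes with the lowest and highest log2 fold change at E10.0 in each further list, and the 10 genes nearest in profile; *Acat2* and *Hmgcs1* were named after their values were seen, and some genes that the rule names are not reported here. Replicate numbers come from the sample titles. Deviations of same-numbered mutants at both stages correlated in all 3 pairs (0.22 to 0.559), although the embryos differ. Differently numbered mutants ran from −0.495 to 0.307. Replicate 4 at E10.0 with replicate 5 at E10.5 (0.307) thus exceeded the lowest same-numbered pair. All negative values lay between mutants numbered 1 to 3 and those numbered 4 and 5. Whether the number pairs samples beyond this split was not tested. The blocked value is given beside the unblocked one for that comparison. In the other comparisons at least 1 same-numbered pair had a correlation under 0.1. Of 23284 symbols, 23166 could be placed on a chromosome (gencode vM1 in mm9, RefSeq names where needed). Promoter windows are RefSeq's in GRCm38.p6. Tables and plots were made with Python 3.11.15, pandas 2.3.3 and matplotlib 3.10.9.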

Additional observations from a re-analysis of the deposited data

Results flagged for a closer look

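In the mutants at E10.0, *Tm7sf2* had 7.68 CPM in replicate 1, far under the 9.77 to 10.03 CPM of the other 3 embryos: the gap to its nearest neighbor was 0.891 of the range of the 4 values, above Dixon's limit of 0.829. Of the 18 sets of 4 mutant values looked at (9 enzymes at 2 stages), this was the only one past the limit, and chance alone flags about 1 set in 20.

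The genotype difference passed a test of its change between the stages for *Lss* (interaction log2 0.588) and *Dhcr7* (interaction log2 0.545), both with an FDR of 0.0766 in the edgeR quasi-likelihood test over 14 embryos. With 1 of the 14 embryos left out in turn, *Lss* remained called in 2 fits and *Dhcr7* in 3. With samples numbered 1 to 3 alone both were lost (FDR = 0.272 and 0.407), and with replicate blocks *Dhcr7* was lost (FDR = 0.12).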

How the results depend on the processing

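The 9 called enzymes at E10.0 stayed 8 to 9 over 14 fits that left out 1 embryo each, and the 8 called between the wild-type stages stayed 8 in all 14. In the genotype, wild-type stage and interaction comparisons the log2 value of no enzyme changed sign under any alternative run. At E10.5 the count of 1 went to 0 with the quasi-likelihood test, with no filter on low counts, with the replicate block and at an FDR of 0.05, and ran from 0 to 1 with 1 embryo left out. Between the mutant stages the count of 0 went to 1 (*Lss*) with the replicate block, in all samples and in mutants alone (the latter fit added after the data were seen), and ran from 0 to 1 with 1 embryo left out; *Lss* was called without mutant replicate 1 or 3 at E10.0 or mutant replicate 2 at E10.5. For the interaction the count of 2 became 4 with DESeq2, 1 (*Lss*) with the replicate block, 0 with samples numbered 1 to 3 and 0 at an FDR of 0.05, and ran from 0 to 3 with 1 embryo left out. Over all genes the 22 interaction calls became 84, 18, 6 and 9 in the first 4 of these settings. The cause of the changed enzyme counts was not tested, other than the stricter limit at an FDR of 0.05 and the smaller number of samples in fits that leave some out. Without wild-type replicate 3 at E10.0, 260 genes were called between genotypes at that stage in place of 840, and 8 of the enzymes were still among them; with samples numbered 1 to 3 alone 2045 were called, and with the replicate block 2018, and all 9 enzymes were among each. The replicate block changed no other call of the enzymes in these comparisons.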
